A study of Homo sapiens with 4 samples.

Results

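RNA was sequenced from MDA-MB-231 Fluc cells, and the ephrins and Eph receptors in the resulting gene table are described here by their level, position and promoter sequence. The members were the rows of the table whose symbol was one of 9 listed genes, which gave 4 Eph receptors (EPHA2, EPHA4, EPHB2 and EPHB4) and 5 ephrins (EFNA1, EFNA4, EFNA5, EFNB1 and EFNB2) among 13957 genes. MDA-MB-231 is a triple-negative breast cancer cell line, and the Fluc derivative carries a luciferase gene for imaging after transplantation. Of the 4 samples, 2 were treated with 50 μM cordycepin (3′ deoxyadenosine) and 2 with the vehicle, DMSO, all for 2 h. The labels do not say whether samples of a group came from separate cultures.

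The table gives a mean expression for each gene over the libraries compared, as log2 CPM (read counts scaled by library size), and no value for a single library. A level reported here is therefore an average of treated and vehicle cells, and it has no SD. The authors' fold changes and p-values between the groups were not used, so the response of these genes to cordycepin is not described. The depth of each library is unknown. Because long genes collect more reads, levels of different genes were compared as CPM per kb, which is the mean CPM divided by the gene length in the table.

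Eph receptors form the largest family of receptor tyrosine kinases, and ephrins are their ligands on the surface of neighbouring cells. A-type ephrins are held in the membrane by a lipid anchor and mainly bind EphA receptors, whereas B-type ephrins span the membrane and mainly bind EphB receptors. EPHA4 binds ligands of both types. Contact sends a forward signal into the cell with the receptor and a reverse signal into the cell with the ephrin, and these signals guide adhesion, repulsion and migration. EPHA2 and EPHB4 are widely studied in breast cancer.

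EPHA2 was the most abundant member, at 44.2 CPM per kb. EPHB4 followed at 9.64, EPHB2 at 5.98, EFNB2 at 5.09 and EFNA5 at 4.11 CPM per kb. The other members were EFNB1 at 2.07, EFNA4 at 1.89, EPHA4 at 0.880 and EFNA1 at 0.866 CPM per kb. EPHA2 thus stood 4.58-fold above the next member and 51.0-fold above the lowest. These gaps depended on the length used. With coding length EPHA2 had 62.5 CPM per kb and the next member, EFNA5, had 34.5. Several neighbours in this order were close, with ratios of 1.18 for EPHB2 over EFNB2, 1.24 for EFNB2 over EFNA5, 1.10 for EFNB1 over EFNA4 and 1.02 for EPHA4 over EFNA1. Without values for single libraries, it could not be tested whether any neighbours in the order differ beyond their spread. The median over all genes of the table was 5.40 CPM per kb, and 3 of the 9 members, all of them receptors, lay above it. The members were not set against the median with another length. With coding length EFNA5 and EFNB2 stood above EPHB2 and EPHB4.

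**Figure D1:**
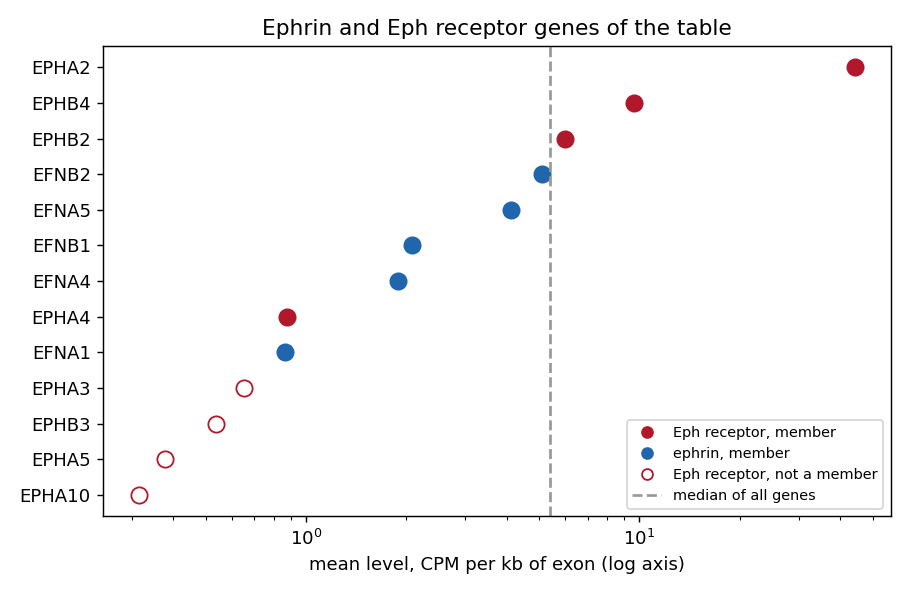
Mean level of each ephrin and Eph receptor gene of the table, in CPM per kb of exon on a log axis. Filled points are members, open points are Eph receptor genes of the table that are not members, and the dashed line is the median of all genes at 5.40 CPM per kb, with EPHA2 alone far to its right at 44.2.

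Among the receptors, EPHA2 (ENSG00000142627) lies on the minus strand of chromosome 1, at 16124337 to 16156069 (GRCh38). It had a mean log2 CPM of 7.52, which is 183 CPM, and its length-scaled level was at percentile 91.3 of all genes in the table. EPHA2 made up 72.8% of the summed CPM per kb of the 4 receptors. It is an EphA receptor of epithelial cells and binds EFNA1 with high affinity, and EFNA1 was the member with the lowest level per kb of all exons. EPHA4 (chromosome 2, 221418027 to 221574202, minus strand) had a mean log2 CPM of 2.73 and was at percentile 11.3, and EPHA2 stood 50.2-fold above it in CPM per kb.

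The EphB receptors had levels between those of the EphA receptors. EPHB4 (chromosome 7, 100802565 to 100827523, minus strand), the receptor that pairs with EFNB2 in vessel formation, had a mean log2 CPM of 5.96 and was at percentile 65.0. EPHB2 (chromosome 1, 22710839 to 22921500, plus strand), a receptor of axon guidance and of the intestinal crypt, had the higher mean log2 CPM of the pair, at 6.23. Per kb of all exons the order was the reverse, because the gene length of EPHB2 in the table is 12516 bases and that of EPHB4 is 6437 bases. With coding length EPHB2 was again the higher, at 25.3 against 21.0 CPM per kb. EPHB2 was at percentile 52.8, near the middle of the table. EPHB4 held 15.9% and EPHB2 held 9.85% of the summed receptor levels.

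The ephrin levels were more evenly divided. EFNB2 (chromosome 13, 106489745 to 106535662, minus strand), the ligand of EPHB4, had a mean log2 CPM of 4.67 and 36.3% of the summed ephrin levels. EFNA5 (chromosome 5, 107376889 to 107670937, minus strand), a lipid-anchored ligand that also binds EPHB2, had a mean log2 CPM of 4.56 and 29.3%. EFNB2 was at percentile 48.4 and EFNA5 at percentile 42.9, so both lay just under the middle of the table. EFNB1 (chromosome X, 68829021 to 68842160, plus strand), the ephrin gene altered in craniofrontonasal syndrome, had a mean log2 CPM of 2.78 and 14.8% of the summed ephrin levels. EFNA4 and EFNA1 were near the bottom of the table before scaling by length, with mean log2 CPM of 1.25 and 0.91, where the lowest value of the table was 0.56. They held 13.5% and 6.18% of the summed ephrin levels. EFNA4 (155063737 to 155069553) and EFNA1 (155127876 to 155134899) lie close together on the plus strand of chromosome 1.

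Summed over members, the receptors reached 60.7 CPM per kb and the ephrins 14.03, a ratio of 4.33. For the A type the sums were 45.1 for EphA receptors and 6.87 for A-type ephrins, a ratio of 6.56. For the B type they were 15.6 for EphB receptors and 7.16 for B-type ephrins, a ratio of 2.18. EPHA2 alone gave 44.2 CPM per kb of the receptor sum and of the EphA sum. The ratios for all members and for the A type therefore rest mainly on this gene. EPHA4, the other EphA member, had 0.880, below the A-type ephrin sum. All of these ratios depended on the length used. With coding length they were 1.51 for all members, 1.56 for the A type and 1.44 for the B type, so the gap between the types nearly closed. On the log2 scale, the median level of the ephrins was 1.05 and that of the receptors 2.92, compared with 2.43 for all genes. These sums describe messenger RNA in the pooled mean and say nothing of protein at the cell surface.

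Scaling by another length changed some of the order. With the length of the canonical transcript, 7 members kept their place, and EPHA4 and EFNA1 exchanged theirs at the bottom. With coding length, EPHA2 stayed at the top with 62.5 CPM per kb, but EFNA5 moved to the second place with 34.5, ahead of EFNB2 with 25.5, EPHB2 with 25.3 and EPHB4 with 21.0. Ephrins have short coding regions, 684 bases for EFNA5 and 999 for EFNB2, within canonical transcripts of 5372 and 4995 bases. Receptor coding regions are longer, from 2928 bases for EPHA2 to 2961 for EPHB4. EFNB1, EFNA4, EFNA1 and EPHA4 remained the lowest 4 under each of these lengths.

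**Figure D2:**
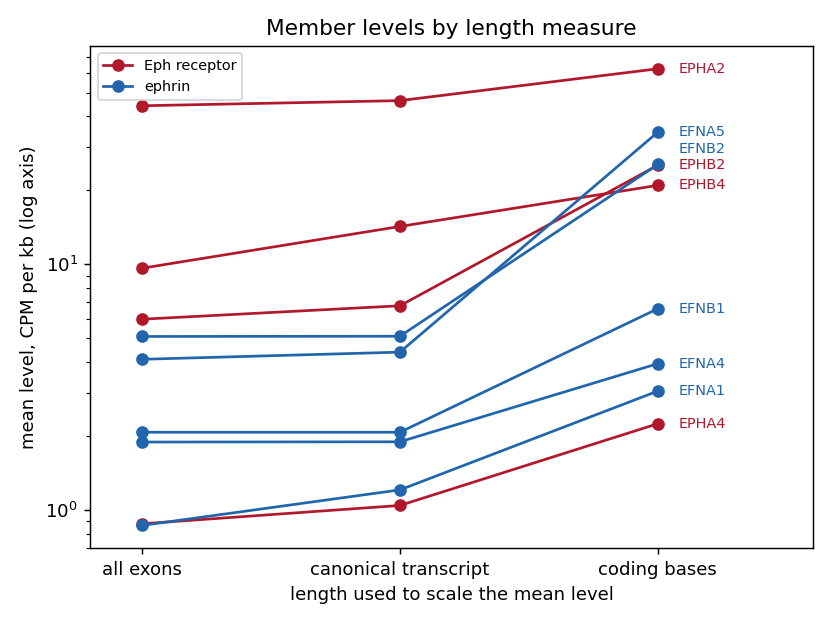
Mean level of each of the 9 members in CPM per kb, on a log axis, when scaled by all exons, by the canonical transcript or by coding bases. Lines join the values of a gene. EPHA2 is highest under each length, and EFNA5 rises from 4.11 with all exons to 34.5 with coding bases.

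Of the 14 human Eph receptor genes, 8 were in the table, and of the 8 ephrin genes, 5 were. Besides the members these were EPHA3, EPHB3, EPHA5 and EPHA10, with 0.651, 0.536, 0.378 and 0.316 CPM per kb. All 4 were below the lowest member per kb. Before scaling, their mean CPM ran from 2.43 for EPHB3 to 4.28 for EPHA3. This was above EFNA4 at 2.38 and EFNA1 at 1.88, but below every other member. With these genes included, EPHA2 still made up 70.6% of the summed receptor levels. EPHA1, EPHA6, EPHA7, EPHA8, EPHB1, EPHB6, EFNA2, EFNA3 and EFNB3 were not among the rows of the table. How rows with few reads were removed is not given in the sources used here, so no level can be given for these genes.

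EPHA2 was then set beside the other receptor tyrosine kinases, the class of receptors to which the Eph family belongs. Of 58 such genes, 35 were in the table. AXL, a receptor of the TAM family that is typical of mesenchymal breast cancer lines, was highest at 401 CPM per kb, which is 9.07-fold above EPHA2. EPHA2 came second, ahead of the HGF receptor gene MET at 38.1 and of EGFR at 32.0 CPM per kb. PTK7, a receptor with an inactive kinase domain, was at rank 5 with 13.1. EPHB4 was at rank 9 and EPHB2 at rank 11, on either side of ERBB2 at 8.73 CPM per kb. EPHA4 and the 4 Eph receptors that are not members were in the lower part of the order. Without scaling, ERBB2 was above both EPHB2 and EPHB4, with a mean log2 CPM of 6.49 against 6.23 and 5.96. The place of EPHA2 depended on the length used, as it was at rank 5 with coding length, behind AXL, EGFR, FGFR1 and MET, and at rank 4 without scaling, behind AXL, EGFR and MET.

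**Figure D3:**
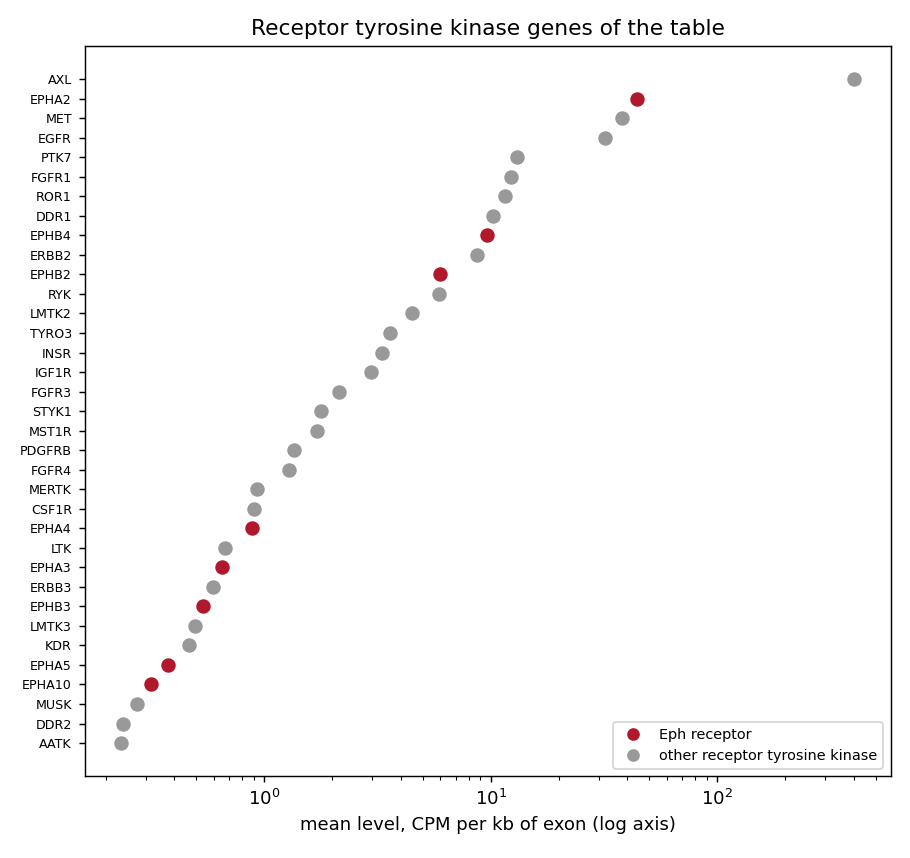
Mean level of the 35 receptor tyrosine kinase genes of the table, in CPM per kb of exon on a log axis, with Eph receptors in red. EPHA2 at 44.2 is second to AXL at 401, and the other Eph receptors are spread from rank 9 downwards.

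Genes known to act with Eph receptors or ephrins were looked up from a list of 47, of which 40 were in the table and 28 lay above the median of all genes. Their median was 11.8 CPM per kb, compared with 4.11 for the 9 members. Levels of these partners were scaled only by the gene length in the table, so their dependence on length is not known. Of the 7 kinases, which include the Src family kinases that act beside the receptors, YES1 was highest at 21.7 and SRC lowest at 5.13 CPM per kb. Among 7 adaptors found, which dock on phosphorylated receptors, the levels ran from 33.5 for GRB2 to 2.29 for NCK1. RASA1, the Ras GTPase activator that binds EphB receptors, had 36.8 CPM per kb, and PIK3R1, a regulatory subunit of PI3K, had 0.964.

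The GTPases through which Eph receptors reshape the actin skeleton and their effectors ran from RHOA, the most abundant partner, at 299 CPM per kb to the kinase gene ROCK1 at 11.1. The levels of their regulators ran from 18.3 for VAV2, an exchange factor that binds activated Eph receptors, to 0.110 for KALRN, and only VAV2 of the 6 found was above the median of all genes. All 5 phosphatases found were above it, from 91.8 for PTPRF to 13.3 for ACP1. ADAM10, the protease that cleaves A-type ephrins after they bind, had 20.4 CPM per kb, and the ubiquitin ligase gene CBLB had 0.957. Of 5 reverse signalling partners found, SDCBP, a PDZ protein that binds the tail of B-type ephrins, had 22.4 and RGS3 had 1.71. GRB7, SLA, VAV3, ARHGEF15, PTPRO, GRIP1 and GRIP2 were not among the rows of the table.

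**Figure D4:**
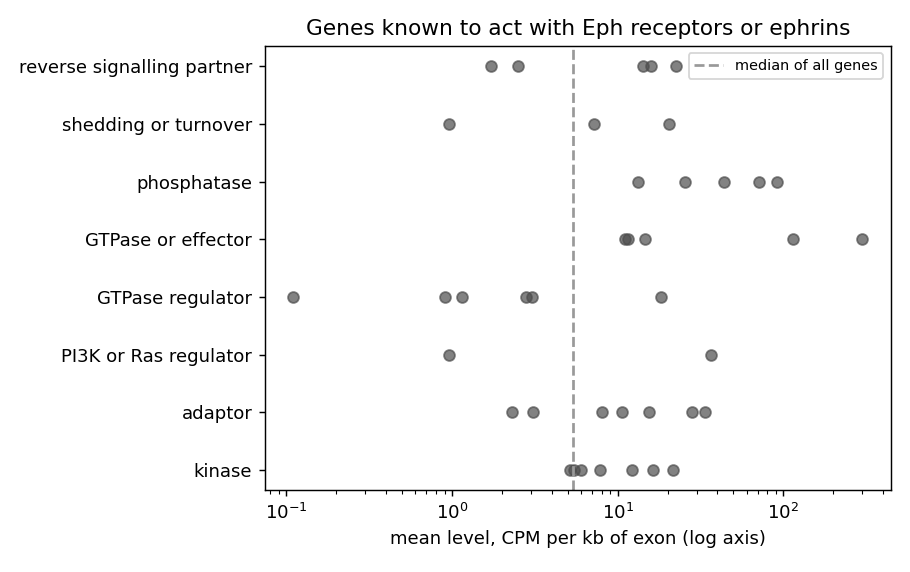
Mean level of the 40 listed partner genes of the table by role, in CPM per kb of exon on a log axis, 1 point per gene. All 5 GTPases or effectors and all 5 phosphatases lie to the right of the dashed line at the median of all genes, 5.40, while 5 of 6 GTPase regulators lie to its left.

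The labelled cell line was checked against its markers. All 6 genes typical of this line were above the median of all genes, from 401 CPM per kb for AXL to 32.0 for EGFR, with VIM at 270. Of 6 luminal or epithelial genes, ESR1 and PGR were not among the rows, and GATA3, EPCAM, CDH1 and FOXA1 had 6.59, 5.27, 2.10 and 1.14 CPM per kb, of which GATA3 was above the median of all genes. None of 6 markers of blood, endothelial, stromal and liver cells (PTPRC, CD3E, CD14, PECAM1, DCN and ALB) was among the rows.

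The promoters of 3 members are shown because they belong to the most abundant receptor, the most abundant ephrin and the member with the lowest level, each per kb of all exons. Each is the 250 bases before the start of the gene in RefSeq (GRCh38.p14), read 5′ to 3′ on the strand of the gene. EPHA2 is at chr1:16156070-16156319 (minus strand), EFNB2 at chr13:106535663-106535912 (minus strand) and EFNA1 at chr1:155127626-155127875 (plus strand). Capitals mark matches on either strand to GGGCGG (the Sp1 box), CCAAT (the CCAAT box), TATAAA (the TATA box), TGACGTCA (the cyclic AMP response element) and TGANTCA (the AP-1 site).
EPHA2: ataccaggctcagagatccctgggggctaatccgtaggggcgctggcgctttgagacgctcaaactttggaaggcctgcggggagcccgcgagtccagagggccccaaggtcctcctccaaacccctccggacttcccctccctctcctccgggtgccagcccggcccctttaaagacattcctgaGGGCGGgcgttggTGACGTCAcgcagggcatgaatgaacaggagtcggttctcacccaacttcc
EFNB2: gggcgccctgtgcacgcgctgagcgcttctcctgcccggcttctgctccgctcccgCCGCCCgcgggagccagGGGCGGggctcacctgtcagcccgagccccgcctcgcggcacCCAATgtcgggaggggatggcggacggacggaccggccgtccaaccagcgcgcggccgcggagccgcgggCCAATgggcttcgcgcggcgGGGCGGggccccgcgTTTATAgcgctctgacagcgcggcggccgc
EFNA1: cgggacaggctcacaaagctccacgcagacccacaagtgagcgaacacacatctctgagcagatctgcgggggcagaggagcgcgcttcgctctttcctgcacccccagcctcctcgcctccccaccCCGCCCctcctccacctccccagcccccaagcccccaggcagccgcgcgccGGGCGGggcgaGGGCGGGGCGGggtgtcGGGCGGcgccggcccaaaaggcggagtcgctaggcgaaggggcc

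GGGCGG was found before the start of each of the 9 members, and in 42.6% of all 35116 promoter windows of this length. A member was counted if any of its windows held the motif, whereas the share is of single windows. This share and those below were taken over all windows, not only over windows of genes in the table or of like G and C content. CCAAT was found in 5 members, EFNA4, EFNB1, EFNB2, EPHA4 and EPHB4, and in 32.0% of all windows. EFNB2 was the only member with TATAAA, here on the opposite strand, which 10.7% of all windows hold. EPHA2 was the only member with TGACGTCA, which 1.65% of all windows hold. This motif was added after the sequence had been seen. TGANTCA was in 0 of 9 members and in 6.57% of all windows. These matches describe letters and not binding, and neighbouring matches can overlap, as in EFNA1.

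Most promoter windows of the members held more G and C than the median window, some of them by little. RefSeq gives 11 windows for the 9 members, as EPHA4 and EPHB2 have more than 1 start. The EPHB2 windows begin at 22710588 and 22710589 and are nearly the same sequence, so this promoter is counted more than once. Of the 11 windows, 10 were above the median GC content of all windows, which was 58.0%. EFNA4, at 58.4%, was only just above it. The highest was EPHB2 with 84.8%, and the lowest was a window of EPHA4 with 43.2%, while the other window of EPHA4 had 78.0%. EPHA2 had 63.2%, EFNB2 78.4% and EFNA1 73.2%. All 11 windows had more CpG for their base composition than the median window, with observed over expected ratios from 0.596 to 1.04 against 0.558.

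Stretches shared with other genes were few when transcripts were compared in the sense direction. Every stretch of 75 bases, the read length, in the canonical transcripts of 8 members was absent from transcripts of other genes in GENCODE release 44. Matches to the opposite strand of other transcripts were not searched. The exception among the members was EFNA4, for which 9.75% of the stretches are also in EFNA4-EFNA3, a read-through gene on the same strand. The longest run of identical bases between members was 59, between EPHA2 and EPHB2, and the next was 24. On the opposite strand, a long noncoding RNA gene, ENSG00000284966, shares 1822 exon bases with EFNB2, which is 36.4% of its exons, and another, ENSG00000272944, shares 353 with EPHA4, which is 4.67%. SLC12A9, which is in the table, shares 69 exon bases with EPHB4. The libraries were stranded, but whether strand was used in counting is not given in the sources used here. EPHA2-AS1, antisense to EPHA2, shares 0 exon bases with it.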

How the data were processed

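MDA-MB-231 Fluc RNA was extracted with a prolonged DNase treatment, depleted of ribosomal RNA and sequenced as 75 bp stranded paired-end reads, from 2 cordycepin and 2 vehicle samples. Reads were mapped to GRCh38.p13 and counted with rsubread, as the methods of the study state. The submitters' processing notes name TopHat, HTSeq, DESeq and Cufflinks without their role. The deposited table gives mean expression per gene as log2 CPM, pooled over libraries by the authors, and a gene length in bases. Its other columns of values are the authors' own comparison of the groups (a fold change, its test statistic, its p-value and the p-value after adjustment), and they were not used. It holds 0 columns of values per sample, so no test, SD or interval could be made and depth is unknown.

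Length-scaled levels were 2 to the power of mean log2 CPM, divided by length in kb. The sum of these CPM over the table was 1005541. Lengths were within 5% of the union of GENCODE release 44 exons for 86.2% of genes and for all 9 members. Percentiles were taken over 13957 genes with the gene length in the table and are not given for another length. Of these genes, 13922 gene IDs were found in GENCODE.

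Members and gene lists were chosen with earlier results of these data known. The genes named were the members, all family genes, the receptor tyrosine kinases with the 5 highest levels, the highest and lowest partner of each role and genes of the table overlapping a member. Marker genes were named from their list, and ERBB2, FGFR1 and overlapping genes outside the table were named after their values were seen. The identity of the proteins, which had been planned, was not computed. The calculation of levels and ranks was run on simulated data with known lengths and no counting error, and that of shares on fixed numbers. These runs check the arithmetic only. Alternatives were the canonical transcript length, coding length, no scaling, protein-coding genes only and genes above the lowest 25% of mean level. Python 3.11.15, numpy 2.4.6, pandas 2.3.3 and matplotlib 3.10.9 were used.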

Additional observations from a re-analysis of the deposited data

How the results depend on the processing

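EPHA2 made up the largest share of the summed receptor levels under each length tried, at 67.7% with canonical transcript length, 56.3% with coding length and 56.0% without scaling, and at 70.6% with all Eph receptor genes of the table, an alternative chosen after seeing the data. The largest share of the summed ephrin levels was that of EFNB2 with canonical transcript length (34.8%) and without scaling (42.3%), and that of EFNA5 with coding length (46.9%). The median log2 level of ephrins less that of receptors was -1.87 in the values reported and stayed negative, at -2.25 with canonical transcript length, -1.80 with coding length and -1.08 with the 5 members above the lowest 25% of mean level. The summed receptor levels over the summed ephrin levels, recomputed after seeing the data, were 4.67 with canonical transcript length and 1.51 with coding length. For the A type these ratios were 6.32 and 1.56, and for the B type 2.93 and 1.44. EPHA2 was at rank 5 of the receptor tyrosine kinase genes with coding length and at rank 4 without scaling. Among protein-coding genes only, EPHA2 was at percentile 92.1 and EFNA1 at 10.3. Among genes above the lowest 25% of mean level, EPHA2 was at percentile 88.4, EPHB4 at 54.4, EPHB2 at 39.6, EFNB2 at 34.3 and EFNA5 at 28.1, and the other 4 members were left out. No paired analysis was possible because values of single libraries were not part of the table, and for the same reason no sample could be left out. The unknown depth limits the 4 members with a mean level in the lowest 25% of the table most, EFNA1, EFNA4, EPHA4 and EFNB1, for which counting error may be large.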
